A study of Danio rerio with 37 samples.

Results

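The gene malat1 encodes a long noncoding RNA that stays in the nucleus. It was 1 of the 32520 genes in the deposited count tables (ENSDARG00000099970) and was chosen by its measured level, which had stood out in some of these libraries in earlier work, so its levels and differences are given as a description without a p-value. The name cell of this gene is blank in the deposited TPM tables, and the symbol was matched to the identifier through a gene name table.

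The 37 libraries were made from whole zebrafish embryos at 6 hours after fertilization, when gastrulation begins, and fall into 12 groups. A group is defined by an RNA-cleaving CRISPR effector (RfxCas13d, DjCas13d or Cas7-11), by a GFP dose of 10 pg or 50 pg, and by its arm, control or knockdown. A group held 3 libraries, except 2 in the 10 pg RfxCas13d knockdown and 4 in each 10 pg Cas7-11 arm. The labels do not say what the control embryos received, whether an effector was also given to them, or whether replicates came from separate clutches, so the spread between replicates may be technical. The labels give no strain for the embryos. GFP was lower in each knockdown library than in any control library of the same effector and dose, for example 4.26 to 7.92 TPM against 676 to 4464 TPM at 10 pg RfxCas13d.

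In vertebrate cells the malat1 transcript collects in nuclear speckles, the bodies that hold splicing factors. In mammals its 3' end is not made by cleavage and polyadenylation. RNase P cuts it upstream of a tRNA-like RNA, RNase Z trims that small RNA, and the new end of malat1 folds into a triple helix that protects it from decay and that METTL16 binds in human cells.

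The level of malat1 fell into a high range in 5 libraries and a lower range in the other 32. In the 10 pg RfxCas13d control embryos malat1 was at 6162, 976 and 6356 CPM, the reads-per-million scale, computed here over gene reads. In the 10 pg RfxCas13d knockdown it was at 754 and 876 CPM. Controls 1 and 3 of this pair of groups stood far above control 2, which was itself above both knockdown libraries.

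In the 50 pg RfxCas13d controls malat1 was at 5830, 1653 and 1054 CPM, and in the knockdown at 740, 416 and 749 CPM. Control 1 was the high library here, and each control was above each knockdown library.

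The DjCas13d groups had their high libraries in the other arm. At 10 pg the controls were at 787, 1013 and 1988 CPM and the knockdown libraries at 5286, 5614 and 1105 CPM. Knockdown 1 and 2 were high, while knockdown 3 lay within the range of the controls. At 50 pg the DjCas13d controls were at 2272, 1497 and 1366 CPM and the knockdown libraries at 1365, 740 and 827 CPM. No library of these 50 pg groups was high. In CPM the arms met without overlap at control 3 and knockdown 1, and in TPM these libraries overlapped.

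With Cas7-11, malat1 stayed within a narrow range in every library. At 10 pg the controls were at 664, 1156, 632 and 590 CPM and the knockdown libraries at 696, 1030, 1054 and 599 CPM. At 50 pg the controls were at 752, 669 and 766 CPM and the knockdown libraries at 801, 758 and 538 CPM. Both pairs of arms overlapped.

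**Figure D1:**
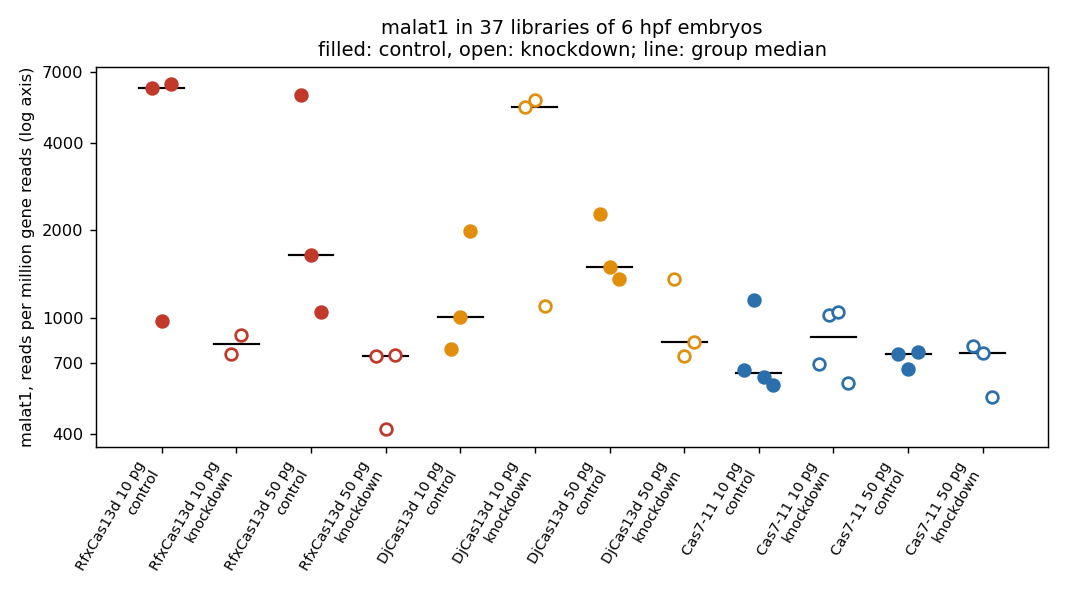
Level of malat1 in each of the 37 libraries, in CPM on a log axis, by effector, dose and arm; filled points are control and open points knockdown libraries, and lines are group medians. The 5 libraries above 5000 CPM belong to the 10 pg and 50 pg RfxCas13d controls and the 10 pg DjCas13d knockdown.

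The plot of levels by library shows a gap between the 2 ranges: the lowest of the 5 high libraries was at 5286 CPM and the highest of the others at 2272 CPM. In TPM, which scales reads by transcript length, malat1 was at 979 to 1160 in the 5 high libraries and at 82.9 to 440 in the others. It ranked 147th to 176th among genes by TPM in the high libraries and 346th to 2216th in the others. Counting error was small beside these differences. The lowest library, 50 pg RfxCas13d knockdown 2, held 1641 malat1 reads, or 416 CPM with a 95% Poisson interval of 396 to 437 CPM, and such intervals cover counting error only. Gene reads per library numbered 3944559 to 8034012 with RfxCas13d, 5945891 to 7337941 with DjCas13d and 17432069 to 23991611 with Cas7-11.

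Ordered by median, the 10 pg RfxCas13d controls (mean 4498 ± 3052 CPM, SD, n = 3) and the 10 pg DjCas13d knockdown (4002 ± 2514 CPM, n = 3) came first. The 50 pg RfxCas13d controls (2846 ± 2602 CPM, n = 3), the 50 pg DjCas13d controls (1712 ± 490 CPM, n = 3) and the 10 pg DjCas13d controls (1262 ± 638 CPM, n = 3) followed. The means of the remaining 7 groups lay between 635 and 977 CPM. All 11 pairs of neighbours in this order overlapped, so no group stood apart from the next beyond its spread. Effector and sequencing depth cannot be told apart in comparisons between Cas7-11 and the Cas13d effectors, and no such test was made.

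Within groups malat1 varied more than most genes. The SD of its log2 CPM within groups was 0.82, against a median of 0.43 over the 16321 genes that passed the filter on low counts, and it was larger than that of 89.9% of them. Of the 84 genes with at least as many reads on average, 0 had a larger SD. Without the 5 high libraries the SD of malat1 was 0.45, a fall that is partly built in because malat1 itself set these libraries apart.

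The 3 largest of the 6 differences between arms were in groups with high libraries. At 10 pg RfxCas13d malat1 was lower in the knockdown than in the controls by a log2 difference of -2.62 ± 0.74 (SE, edgeR quasi-likelihood fit), which is larger than the pooled SD of the 2 groups, 1.34. The arms did not overlap, as was so for 45.9% of all genes in this comparison, and 2.25% of all genes had a larger difference in size. With the 2 high controls left out the difference was -0.28.

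At 10 pg DjCas13d malat1 was higher in the knockdown, by 1.82 ± 0.61 on the log2 scale (pooled SD 1.13), and the arms overlapped. Without the 2 high knockdown libraries the sign turned, to -0.21. The opposite directions at 10 pg RfxCas13d and 10 pg DjCas13d were seen with the high libraries and not without them. The high libraries were set by malat1 itself and lay in the higher arm, so leaving them out had to shrink or turn these differences. Fits without the high libraries left 1 library each in the 10 pg RfxCas13d controls and the 10 pg DjCas13d knockdown, and a lone library is taken to vary like the other groups.

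At 50 pg RfxCas13d the knockdown was lower by a log2 difference of -2.79 ± 0.63 (pooled SD 1.06). It was at -1.65 without control replicate 1, and at -1.67 without all libraries above 5000 CPM. The arms did not overlap, as for 53.9% of all genes. Among all genes, 9.04% had a larger difference in size in this comparison. Scaled by library size alone the value was -2.16, where the median of all genes moved from 0.05 to 0.64, and on log2(TPM + 1) it was -1.77.

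At 50 pg DjCas13d the knockdown was lower by -0.94 ± 0.60 (pooled SD 0.45), with no overlap between arms in CPM, which held for 26.1% of all genes. The nearest libraries, control 3 and knockdown 1, were at 1366 and 1365 CPM. In TPM the arms overlapped, with control 3 at 245 and knockdown 1 at 267. This group pair held no library above 5000 CPM. With each library left out in turn the value was between -1.27 and -0.67. The Cas7-11 differences were 0.15 ± 0.51 at 10 pg and -0.10 ± 0.59 at 50 pg, both smaller than the pooled SDs of 0.41 and 0.18. In these whole-embryo samples, fewer cells of a type and less RNA per cell cannot be told apart.

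**Figure D2:**
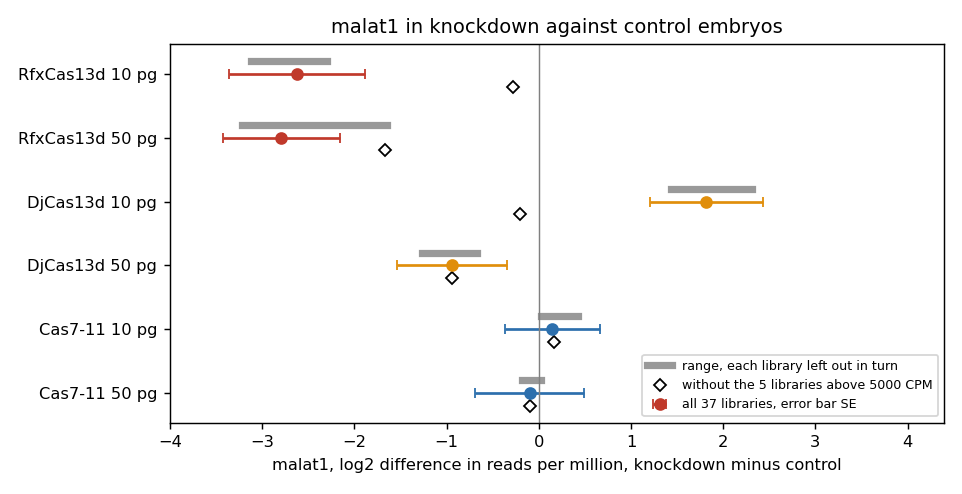
Difference of malat1 between knockdown and control embryos, as log2 of CPM, for 3 effectors at 2 doses; points with SE bars use all 37 libraries, grey bars span the values with each library left out in turn, and diamonds leave out the 5 libraries above 5000 CPM. The 10 pg RfxCas13d and 10 pg DjCas13d points lie at -2.62 and 1.82, and their diamonds at -0.28 and -0.21.

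Between doses, malat1 in the DjCas13d knockdown was lower at 50 pg than at 10 pg by a log2 difference of -2.29 ± 0.62, and by -0.26 without the high libraries. In the RfxCas13d controls the 50 pg against 10 pg difference was -0.53 ± 0.59. It was 0.68 without the high libraries, and -1.68 or -0.11 without 50 pg control 1 or 3 alone. The other dose differences were -0.70 ± 0.66 in the RfxCas13d knockdown, 0.47 ± 0.59 in the DjCas13d controls, -0.05 ± 0.55 in the Cas7-11 controls and -0.29 ± 0.56 in the Cas7-11 knockdown. Without 50 pg DjCas13d control 1 or 10 pg DjCas13d control 3 the DjCas13d control value was 0.20 or 0.97, and without 50 pg knockdown 2 the RfxCas13d knockdown value was -0.41. Of these 4 pairs of groups, 3 overlapped, and the RfxCas13d knockdown groups did not, as was so for 63.5% of all genes.

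Within groups the composition of the libraries moved with malat1. Reads assigned to no gene took 13.6% to 15.2% of all reads in the 5 high libraries and 8.34% to 13.3% in the others. The 13 mRNAs encoded in the mitochondrial genome took 5.03% to 9.65% of gene reads in the high libraries and 1.13% to 4.58% in the others. Neither the unassigned nor the mitochondrial share overlapped between the 2 sets of libraries. The sets were made from the malat1 level itself, so this is a description of 5 libraries. Between groups the mitochondrial share did not keep the order of malat1: the 50 pg RfxCas13d knockdown had the lowest mean malat1 level (635 CPM) and a mitochondrial share of 3.32% to 4.58%.

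Within groups, the deviation of malat1 from its group mean was set against the deviations of these shares, libraries being the points. For the unassigned share Pearson's r was 0.899 (Spearman's rho 0.941) over 37 libraries, 0.899 over the 23 Cas13d libraries, 0.902 over the 14 Cas7-11 libraries and 0.861 over 30 libraries. These 30 are the 32 that were not high, less 2 that were then alone in their group. For the mitochondrial share r was 0.891 (rho 0.841) over 37 libraries, 0.930 in the Cas13d libraries, 0.207 in the Cas7-11 libraries and 0.710 over the 30 libraries. Leaving out the 2 libraries farthest from the median gave 0.890 and 0.839. The relation to unassigned reads was therefore seen in both kinds of library, and that to mitochondrial mRNA in the Cas13d libraries, while a difference between the kinds was not tested. Other shares moved with malat1 as well: over 37 libraries r was 0.617 for multimapping reads, 0.707 for ambiguous reads and 0.8 for ribosomal protein genes. In the Cas7-11 libraries these were 0.785, 0.373 and -0.266. The unmapped share was at 0.279 over 37 libraries and at -0.532 in the Cas7-11 libraries. For sequencing depth r was 0.234. For log2 GFP TPM it was -0.204, and the sign turned without the 2 farthest libraries (0.480) and over the 30 libraries (0.269). Points share their library's scaling, and the part of library composition in the malat1 differences was not tested.

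**Figure D3:**
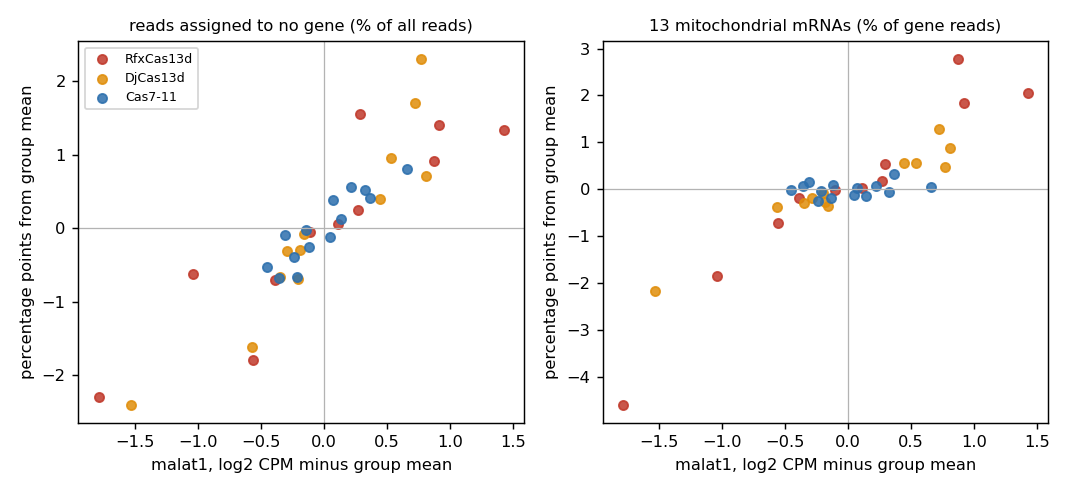
Deviation of each library from its group mean: malat1 in log2 CPM on the x axes, and on the y axes the share of all reads assigned to no gene (left) and the share of gene reads from 13 mitochondrial mRNAs (right), in percentage points. Cas7-11 libraries follow the line of the Cas13d libraries on the left (r 0.902) and stay near 0 on the right (r 0.207).

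Genes that followed malat1 were ranked by Pearson's r between within-group deviations of log2 CPM over the 37 libraries. Of 16320 other genes, 156 (0.956%) had r of at least 0.8, and 558 (3.42%) had r of -0.8 or less. The median over all genes was -0.02. All 156 still had r above 0 without the high libraries, but 4 reached 0.8 there. In the Cas7-11 libraries 116 of the 156 had r above 0, where 49.5% of all genes did, and 3 reached 0.8. Of the 558, all 558 stayed below 0 without the high libraries and 461 were below 0 in the Cas7-11 libraries. Both sets were chosen over libraries that include these, so the shared signs are partly built in.

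The genes below were ranked among those with a gene name, not a clone or accession identifier, and a mean log2 CPM of 1 or more. The closest to malat1 was dkc1, which encodes dyskerin, the pseudouridine synthase of H/ACA small nucleolar ribonucleoproteins (snoRNPs). Its r was 0.957 over 37 libraries, 0.980 in the Cas13d libraries, 0.540 in the Cas7-11 libraries and 0.818 without the high libraries. In the 10 pg RfxCas13d controls dkc1 was at 1409, 759 and 1419 CPM, so the same 2 libraries were high as for malat1. In the 10 pg DjCas13d knockdown it was at 1284, 1373 and 835 CPM, again with libraries 1 and 2 high. In the 50 pg RfxCas13d controls it was at 1270, 900 and 754 CPM. Its range over all libraries, 528 to 1419 CPM, was narrower than that of malat1.

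Of the other 9 genes with the highest r, 4 were mitochondrial mRNAs: mt-co2 (r 0.918), mt-nd4 (0.917), mt-atp6 (0.913) and mt-nd1 (0.911), which encode respiratory chain and ATP synthase subunits. The remaining ones were fam133b (0.923), the plasma membrane calcium pump gene atp2b1a (0.922), the ubiquitin ligase gene rbbp6 (0.915), the cullin adaptor gene kctd5a (0.913) and the lysosomal membrane protein gene lamp1b (0.910). Of these 9, lamp1b held best without the high libraries (0.807) and in the Cas7-11 libraries (0.643). The mitochondrial genes were at 0.287 to 0.381 in the Cas7-11 libraries. Restricted to the Cas13d libraries the 5 closest were dkc1, atp2b1a, the 14-3-3 gene ywhaqa (0.961), mt-co1 (0.959) and mt-co2.

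Genes that ran opposite to malat1 were led by eloa, which encodes the transcription elongation factor elongin A, at r -0.956. In the 10 pg RfxCas13d controls eloa was at 13.4, 86.9 and 14.7 CPM, against 123 and 133 CPM in the knockdown. It was also low in the high DjCas13d libraries, at 18.9 and 12.3 CPM against 72.6 CPM in the third knockdown library of that group. In the Cas7-11 libraries r was -0.594.

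Others were the choline transporter gene slc44a1a (r -0.953), the single-strand DNA-binding protein gene fubp3 (-0.952) and mat2aa (-0.947). The product of mat2aa makes S-adenosylmethionine, and in human cells METTL16 binds the mRNA of its counterpart. The list went on with the phosphatase subunit gene ppp4r1 (-0.947), ago-04 (-0.946), the adducin gene add1 (-0.941), the signal recognition particle gene SRP72 (-0.941) and the G protein gene gna13b (-0.940). These 8 genes and eloa stayed at -0.767 or below without the high libraries.

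In the Cas7-11 libraries alone the genes closest to malat1 were others: the cyclin-dependent kinase subunit gene CKS2 (r 0.884), nkapd1 (0.880), the small GTPase gene rab13 (0.869), the heme transporter gene slc48a1a (0.860) and the splicing regulator gene nsrp1 (0.860). Of these 5, nkapd1 was also close in the Cas13d libraries (0.869), whereas slc48a1a was at -0.328 there. Over the 37 libraries CKS2 was at 0.628, nkapd1 at 0.868, rab13 at 0.369, slc48a1a at -0.232 and nsrp1 at 0.601. Reads of slc48a1a were few, 2.62 CPM on average. Over the 14 Cas7-11 libraries 31 of 16320 genes had r of at least 0.8, and how many would do so by chance was not tested.

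**Figure D4:**
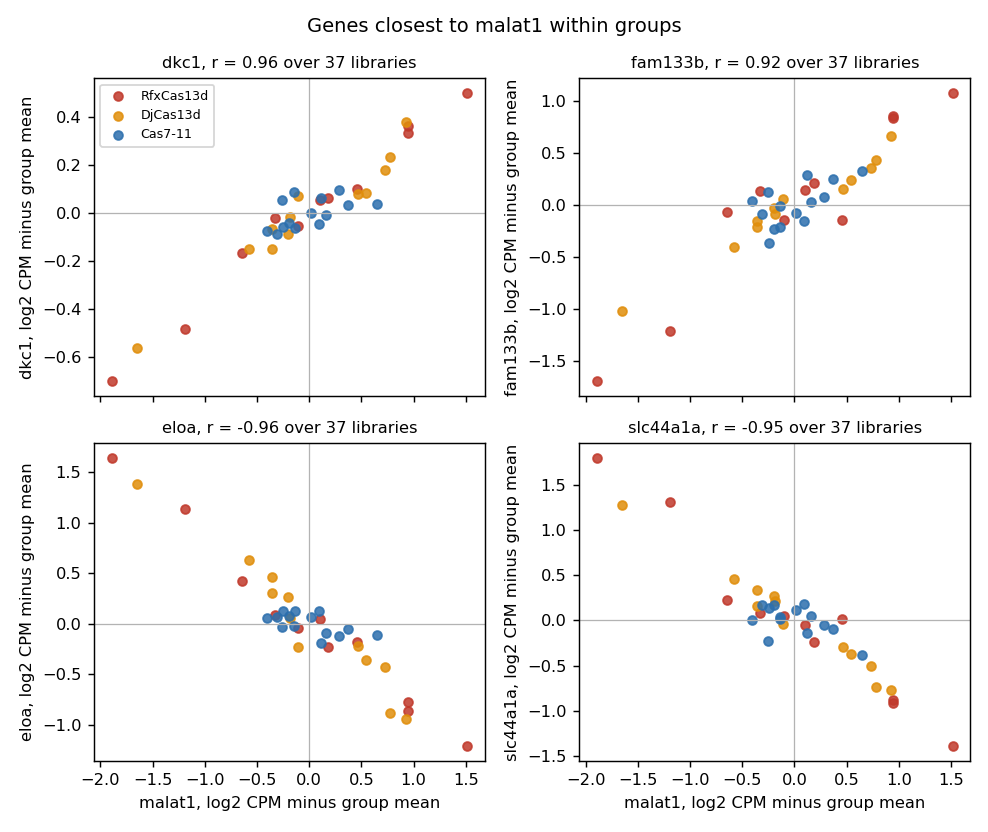
Deviations of malat1 (x axes) and of 4 genes (y axes) from their group means in each of the 37 libraries, in log2 CPM. Points for dkc1 (r 0.957) and fam133b (r 0.923) rise with malat1 and those for eloa (r -0.956) and slc44a1a (r -0.953) fall, and the Cas7-11 libraries lie near the centre.

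Other noncoding RNAs, and genes of malat1 end formation and end binding, nuclear bodies and nuclear RNA decay, were then described by list. No tie of these genes to malat1 was measured here, nor where their RNAs lie in the cell. Of 81 nuclear and small noncoding RNA genes found, 16 passed the filter on low counts. All 16 had r above 0, as had 48.3% of all genes, with a median of 0.50. Low genes such as SNORA71, at 0.46 CPM on average, can pass the filter through the libraries where they are high. The shared sign may thus be partly built in. The only one at 0.8 or more was a copy of SNORA73 (0.806). The small RNA host gas5 was at 0.625 and oip5-as1 at 0.327. Small RNA copies had few reads, 4.58 CPM on average for that SNORA73 copy, and near-identical copies share reads, so their values are uncertain. In the Cas7-11 libraries the median was -0.11.

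For malat1 end formation and end binding as known from mammals, 14 genes were measured, those of RNase P and RNase Z and mettl16. Their median r was 0.31. The RNase P subunit genes pop4 (0.806) and pop1 (-0.754) lay at opposite ends of this list. The RNase Z gene elac2 was at 0.347, and at -0.423 without the high libraries. The binding protein gene mettl16 was at -0.279.

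Nuclear speckle proteins showed no common direction over the 37 libraries: 18 of 36 had r above 0 and the median was -0.01. In the Cas7-11 libraries their median was -0.40, where that of all genes was -0.01. The kinase gene clk2a (0.902) and the splicing factor genes srsf3a (0.866) and acin1a (0.818) were at 0.8 or more, and srsf10a was at -0.858. Of 19 paraspeckle and nuclear RNA-binding proteins 8 had r above 0 (median -0.14), and hnrnpa1a was at -0.913. Of 21 genes of nuclear RNA decay 5 had r above 0 (median -0.40), with the helicase gene mtrex at -0.825, exosc4 at -0.826 and exosc1 at -0.822. The nuclear poly(A)-binding protein gene pabpn1 was at 0.752 in that list. In the Cas7-11 libraries the medians of the paraspeckle and decay lists were -0.30 and -0.25.

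Among mitochondrial mRNAs and ribosomal protein genes r was mostly high over the 37 libraries. Of 13 mitochondrial mRNAs 11 had r of at least 0.8 (median 0.89), and of 79 cytosolic ribosomal protein genes 17 did and 78 were above 0 (median 0.73). In the Cas7-11 libraries these medians were 0.29 and -0.24. A pair of small lists was added after the values had been seen. The pair held 9 snoRNP core proteins, of which dkc1 and nop56 (0.909) reached 0.8. It also held 6 CLK kinases and L-type cyclins, of which clk2a and ccnl1a (0.879) did. Of the 9 snoRNP genes 7 had r above 0 (median 0.48), and fbl was at -0.216 and snu13b at -0.094. All 6 genes of the other list had r above 0 (median 0.66). The medians of the 2 added lists were -0.38 and -0.11 in the Cas7-11 libraries.

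**Figure D5:**
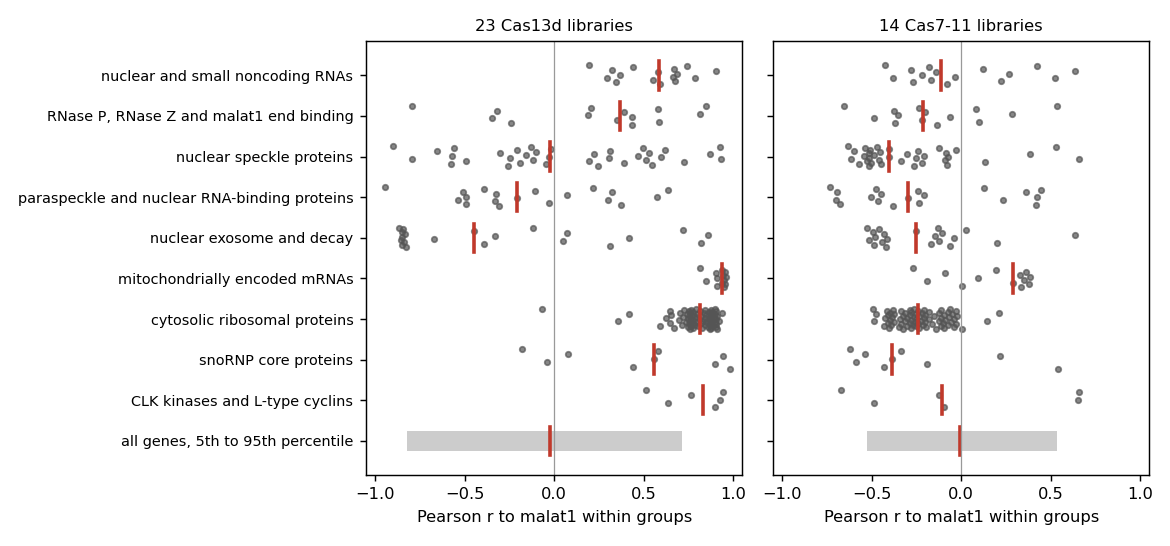
Pearson's r to malat1 of within-group deviations for the members of 9 gene lists, in 23 Cas13d libraries (left) and 14 Cas7-11 libraries (right); each point is a gene, red bars are medians, and the grey band spans the 5th to 95th percentile of all genes. Mitochondrial mRNAs and ribosomal protein genes lie towards the right edge in the Cas13d libraries and not in the Cas7-11 libraries.

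These lists were also compared between the arms, with p-values adjusted over all 16321 genes by the Benjamini-Hochberg method (edgeR). At 50 pg RfxCas13d 83 of the 106 members of the 5 nuclear lists passed, or 78.3%, where 58.8% of all genes passed. Of the members 71 fell and 12 rose, and of all genes 28.8% fell and 30% rose. Of 36 speckle protein genes 30 fell and 1 rose. Among those that fell, srsf1a was at -1.44 ± 0.14 (adjusted p = 1.72e-09) and clk2a at -1.99 ± 0.32. The gene clk2a was named after its r to malat1 over libraries that include these was seen, so no p-value is given for it. Of 19 paraspeckle and RNA-binding protein genes 18 fell, sfpq by a log2 difference of -1.13 ± 0.16 (adjusted p = 6.02e-07). Of the 16 noncoding RNAs 11 fell, with gas5 at -2.73 ± 0.33 (adjusted p = 4.65e-08) and oip5-as1 at -1.90 ± 0.19 (adjusted p = 2.11e-09). Those with few reads may have passed the filter through libraries where they were high, so this count may be partly built in. Scaled by library size alone 48 members fell and 19 rose, and of all genes called 7376 were higher and 2531 lower, against 4900 and 4694 with TMM scaling. Some other lists fell as widely in this comparison: 78 of 79 ribosomal protein genes, 8 of 8 enveloping layer markers, 5 of 7 yolk syncytial layer markers and 6 of 8 gastrula markers. Others did not. Of 13 mitochondrial mRNAs 0 passed with all libraries, and 4 rose without those above 5000 CPM. Of 6 muscle markers 1 fell and 1 rose, as did 1 and 1 of 6 ovary and egg coat markers. Of 3 neuron and glia markers 2 rose, of 4 liver markers 2 fell, and of 2 leukocyte markers 1 fell. The part of these other lists in the fall of the nuclear lists was not tested.

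The genes of malat1 end formation and end binding split at 50 pg RfxCas13d: 6 rose and 5 fell. Those that rose included mettl16 (0.88 ± 0.26, adjusted p = 0.00402), elac2 (0.84 ± 0.18, adjusted p = 0.00026) and pop1 (0.91 ± 0.36, adjusted p = 0.0293). The RNase P gene rpp38 fell (-1.41 ± 0.17, adjusted p = 4.7e-08). Of 21 nuclear decay genes 5 rose and 7 fell, near the shares of all genes, 30% and 28.8%. With library size alone the medians of these 2 lists turned from -0.05 to 0.58 and from -0.13 to 0.46, while the median of all genes moved by about as much, from 0.05 to 0.64. Without the libraries above 5000 CPM 78 of the 106 members passed, where 53.8% of all genes did.

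At 10 pg RfxCas13d 19 of the 106 members (17.9%) passed, where 14% of all genes passed. Of the members 13 fell and 6 rose, and of all genes 6.98% fell and 7% rose. The genes acin1a (-1.23 ± 0.28, adjusted p = 0.00573), rpp38 (-0.91 ± 0.19, adjusted p = 0.00418) and gas5 (-1.21 ± 0.35, adjusted p = 0.0235) fell. The snoRNP gene dkc1, outside these 106 members, was lower by a log2 difference of -1.12 ± 0.25. It was chosen by its r to malat1 over libraries that include these, so no p-value is given. The paraspeckle gene sfpq rose (0.51 ± 0.18, adjusted p = 0.0468). Some lists outside the 106 members fell more widely here. Of 79 ribosomal protein genes 35 fell and 0 rose. Of 6 ovary and egg coat markers 3 fell, of 3 neuron and glia markers 2 and of 6 muscle markers 2. Others moved little: 1 of 8 enveloping layer, 1 of 7 yolk syncytial layer and 0 of 8 gastrula markers fell. All 13 mitochondrial mRNAs fell as well. Of these, mt-co2, also among the genes chosen by r to malat1, was lower by a log2 difference of -2.54 ± 0.51. At 50 pg RfxCas13d, by contrast, 0 of the 13 passed in edgeR (list median -0.12), 1 had an unadjusted p under 0.05, and 1 passed in DESeq2. This null depended on the high control. At 50 pg without the libraries above 5000 CPM, 4 of the 13 rose, 6 had an unadjusted p under 0.05, and the list median was 0.525. Without the 2 high controls, 0 of the 106 members passed in edgeR, 5 had an unadjusted p under 0.05, and 1 of all genes passed. Of the mitochondrial mRNAs 0 of 13 then passed, 0 had an unadjusted p under 0.05, and the median was -0.35. In that fit the controls were 1 library.

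In the other comparisons few genes passed. At 10 pg DjCas13d 0 of the 106 members passed by edgeR and by DESeq2. Of all genes 0.0% passed by edgeR and 0.60% by DESeq2. By edgeR 11 of the 106 members had an unadjusted p under 0.05, as had 2553 of all 16321 genes, a larger share. Of the 13 mitochondrial mRNAs 0 passed by either tool, but all 13 had an unadjusted p under 0.05 by both. Their median log2 difference was 1.181, higher in the knockdown. Without the libraries above 5000 CPM, which left 1 knockdown library, the mitochondrial median was -0.023. At 50 pg DjCas13d 0 members passed by both tools, where 0.00613% of all genes passed by edgeR and 0.208% by DESeq2. There 6 of the 106 members had an unadjusted p under 0.05 by edgeR, as had 1528 of all 16321 genes, again a larger share. With Cas7-11 1 member passed at each dose, where 0.0735% of all genes passed at 10 pg and 0.0613% at 50 pg. It was hnrnpm, a splicing regulator named here after its values were seen. It fell by a log2 difference of -0.98 ± 0.15 at 10 pg (adjusted p = 0.000684) and of -0.86 ± 0.17 at 50 pg (adjusted p = 0.0314).

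Markers of the gastrula were present in every library, at a sum of 837 to 2460 CPM over 8 genes (tbxta, tbx16, sox3 and others). Of later tissues, 10 muscle genes summed to 4.67 to 16.6 CPM, 10 erythrocyte genes to 0.59 to 3.09 CPM and 8 neuron and glia genes to 1.87 to 28.5 CPM. Higher sums came from 7 liver genes, at 1.98 to 684 CPM and mostly from fetub, and from 8 leukocyte genes, at 135 to 671 CPM. Within groups the leukocyte sum, mostly lcp1, ran against malat1 (r -0.725) and that of 7 yolk syncytial layer genes with it (r 0.584). Taken singly, 2 leukocyte genes passed the filter, with lcp1 at r -0.633 and coro1a at 0.016. Without the high libraries lcp1 was at -0.218. Of the 7 yolk syncytial layer genes 6 had r above 0, and mxtx2 was at -0.285. Their median r was 0.46, and 0.40 without the high libraries. In the 14 Cas7-11 libraries it was -0.17. In the 5 high libraries the yolk syncytial layer sum was 5587 to 6658 CPM and in the others 1704 to 6334 CPM. The part of these markers in the malat1 level was not tested.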

How the data were processed

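RNA of 37 whole-embryo libraries was analysed. Per the labels' protocols a directional kit, which marks the strand, was used, and danRer11 is the only genome build named in the submitters' processing notes. Which aligner and counting program were used, and with which strand option, is not given in the sources used here, so reads of genes overlapping malat1 cannot be told apart. The authors deposited raw counts, whole numbers of reads per gene, and TPM values for each library. The deposited tables gave symbols for 20859 genes, and a gene name table gave 8382 more, malat1 among them. Replicates differed by more than sampling noise in all 40 pairs within groups.

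CPM were computed over gene reads without GFP. The summary entries stayed out: unmapped reads were 3.16% to 8.79% of all reads, multimapping ones 3.81% to 6.29%, those assigned to no gene 8.34% to 15.2%, and ambiguous ones 0.392% to 0.57%. Counts were fitted with edgeR 4.0.16 in R 4.3.3 (filterByExpr, TMM, robust quasi-likelihood, 1 coefficient per group, all 37 libraries, biological coefficient of variation 0.253), with a threshold of 0.05 on the Benjamini-Hochberg adjusted p. DESeq2 1.42.0 was an alternative. The SE is the log2 difference divided by the square root of F. Likeness used TMM-scaled log2 CPM with a prior count of 2, minus group means. The fit and the likeness ranking were tested on simulated data.

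The genes named are the 10 with the highest and the 10 with the lowest r to malat1, the 5 highest in the Cas13d and in the Cas7-11 libraries, up to 4 abundant members of each list, and mettl16, elac2, pop1, srsf1a and mt-co1, and those chosen by r needed a mean log2 CPM of 1 or more. One gene chosen by r is not reported here. Other list members given with values were named after their values were seen, and so were the snoRNP and CLK lists. The gene, the lists, the 5000 CPM limit and the rules were chosen with earlier results of these data known. Same-numbered control and knockdown libraries correlated above 0.1 in every pair only at 10 pg Cas7-11 (r 0.505, 0.342, 0.280 and 0.410). Unlike numbers correlated as much there in 3 cases, control 2 with knockdown 1 (0.413), 3 with 4 (0.446) and 4 with 3 (0.295). Replicates 1 and 2 had r of 0.181 to 0.505 with 1 and 2 of the other arm. Replicates 3 and 4 had r of 0.280 to 0.446 with 3 and 4. Between replicates 1 or 2 and replicates 3 or 4, r was -0.473 to -0.253. Replicates 1 and 2 thus stood apart from 3 and 4, which is not pairing by number, and the main fit used no pairing. In the other comparisons pairs share a number alone.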

Additional observations from a re-analysis of the deposited data

Results flagged for a closer look

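In the 10 pg Cas7-11 controls, replicate 2 had the highest malat1 level, 1156 CPM and 219 TPM. Dixon's test flagged it as far from the other 3 controls. Chance passes this test in about 1 in 20 groups, and 8 groups were checked. Since malat1 was chosen by its level in these data, the flag is a description and carries no test of replicate 2. Unassigned reads took 9.89% of its reads, against 8.42% to 9.06% in the other 3 controls. Without it the knockdown minus control log2 difference at 10 pg Cas7-11 was 0.43 instead of 0.15.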

How the results depend on the processing

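In pairs of groups that held any of the 5 libraries above 5000 CPM, the size of the malat1 difference depended on these libraries. They were set by the malat1 level itself, so this dependence is partly built in. Without them the knockdown minus control difference was -0.278 at 10 pg RfxCas13d, -1.667 at 50 pg RfxCas13d and -0.205 at 10 pg DjCas13d. The 50 pg minus 10 pg difference was then -0.263 in the DjCas13d knockdown and 0.679 in the RfxCas13d controls. The sign turned at 10 pg DjCas13d and in the RfxCas13d controls, and the other directions held. With each library left out in turn the 50 pg RfxCas13d value ran from -3.215 to -1.646. The within-group SD fell to 0.447 without the 5 libraries. Changes of sign without 1 library were limited to small Cas7-11 differences: 0.02 for 50 pg knockdown minus control without knockdown 3, and 0.22 and 0.02 for the dose difference of the controls without 10 pg control 2 or 50 pg control 2. Under library size alone, DESeq2 size factors, DESeq2, no filter, TPM with either pseudocount, totals without malat1 and mitochondrial mRNAs, and the libraries compared alone, each malat1 difference between arms moved by less than its pooled SD. That SD is wide: on log2(TPM + 1) the 50 pg RfxCas13d value was -1.77.

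Genes at r of at least 0.8 (156) numbered 346 in the Cas13d libraries, 31 in the Cas7-11 libraries, 25 by Spearman's rho, 85 with library size alone, 50 on log2(TPM + 1), 44 without the 2 farthest libraries and 8 without those above 5000 CPM. Those at -0.8 or less (558) numbered 972 and 10 in the Cas13d and Cas7-11 libraries, 142 by rho, 633 with library size alone, 757 on log2(TPM + 1), 153 without the 2 farthest and 23 without those above 5000 CPM. The cause was not tested. With the replicate block, malat1 differences were -1.70, -2.43 (RfxCas13d, 10 and 50 pg), 1.71, -0.95 (DjCas13d), 0.16 and -0.10 (Cas7-11). Members of the 5 nuclear lists called at 10 pg RfxCas13d were 2 with the block, where 2.13% of all genes were called. At 50 pg Cas7-11 0 members were called with the block, where 0.0674% of all genes were (edgeR). There 7 of the 106 members had an unadjusted p under 0.05, as had 587 of all 16321 genes, a smaller share. No other call of these lists changed by over 1.5 times with the block. Depth limits low genes: small noncoding RNAs had few reads per library.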
